A study of Arabidopsis thaliana with 9 samples.

Results

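Plants that see the same low ratio of red to far-red light (R:FR) can receive it in different ways, and the comparison described here sets the leaf transcriptome under far-red light reflected by a grass neighbour against that under far-red light emitted by LEDs. The libraries chosen were the 3 of biological low R:FR (W1 to W3) and the 3 of artificial low R:FR (FR1 to FR3), 6 of the 9 libraries of the series, and the genes were the 17784 of 37363 with at least 1 TPM in at least 3 libraries. TPM is a level corrected for gene length and scaled to the same total in every library. All plants were wild type *Arabidopsis thaliana* of the ecotype Columbia. In the biological low R:FR group, plants had 3 weeks at an R:FR of 1.4 and then 1 week at 0.3 beside the grass, a surrogate weed whose roots were kept apart from theirs. In the artificial low R:FR group, plants had the same 3 weeks at 1.4 and then 1 week at 0.3 under far-red LEDs. The weed-free group (WF1 to WF3) stayed at 1.4 for all 4 weeks, and its values are given here only to place the other groups. Each library held the pooled rosette leaves of 3 plants that were 4 weeks old and had a 12-hour photoperiod. The grass and the LEDs were placed in separate growth chambers, so chamber and light source cannot be told apart in any difference of W and FR libraries given below. The paper's methods describe an opaque screen that kept light of the grass away from the control plants. Weed-free plants thus appear to have shared the chamber of the grass. If so, FR libraries differ from weed-free leaves in chamber as well as in light, and W libraries do not differ from them in chamber. By the same methods, pots with grass held another substrate around the central tube than pots of both other groups. Living grass, substrate and light thus cannot be told apart in the W libraries. The part of the chamber was not tested. Neither the labels nor the methods name the time of day of the harvest.

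Shade light is poor in red and rich in far-red, which shifts phytochromes, the red and far-red photoreceptors of plants, to their inactive form. Growth-promoting transcription factors, the PIFs, are then freed and switch on auxin synthesis and cell elongation, known together as shade avoidance. The circadian clock of the leaf, built from genes that peak at dawn and genes that peak towards evening, sets the daily course of many other genes, among them those of cold tolerance, photosynthesis and starch.

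The files held values above 0 TPM for 22096 to 23872 genes per library, and the relative depth of the libraries differed by up to 3.22 times, the shallowest being weed-free. Libraries of the same treatment had Spearman correlations of 0.965 to 0.988 across genes, which are not independent replicates, and libraries of different treatments 0.893 to 0.947. On the first principal component, which held 54.2% of the variance, W1 to W3 lay between -49.4 and -31.3, FR1 and FR2 at 56.0 and 53.1, and FR3 at 21.0, nearer to the weed-free libraries at -16.7 to 3.5. FR3 stood apart from FR1 and FR2 in the clock and cold genes described below, so those results are given with and without it. Leaf identity was clear in all 9 libraries, with *RBCS1A*, a small subunit of Rubisco, at 19121 TPM or more in each of them. No marker of the shoot apex and flower (0 of 7) and only *SHR* and *SCR* of 7 root markers reached 1 TPM in 3 libraries. A second table of the series, of normalized counts for 16601 genes, had mean levels that followed mean TPM only weakly across genes (Spearman 0.0975), and the TPM values were used. Of the 24 genes with the largest differences named below, 21 were in that table. All 21 had a mean difference of the same direction there. *DRM2* had 143, 156 and 230 normalized counts in W1 to W3, against 0, 0 and 15 in FR1 to FR3. But *COR15B* overlapped, at 193, 215 and 284 in W1 to W3, against 175, 157 and 289 in FR1 to FR3. So did AT5G17460, at 24, 20.8 and 4.96, against 6.21, 6.5 and 10.1. Of 5434 TPM calls that DESeq2 tested on the reads of that table, 706 were called in the same direction and 69 in the opposite one. Why the levels of the tables differ was not tested.

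Of the 17784 genes, 6658 (37.4%) differed between biological and artificial low R:FR at an adjusted p under 0.05, with 4240 (23.8%) higher and 2418 (13.6%) lower under the grass. Differences are given throughout as biological minus artificial low R:FR on the log2(TPM + 1) scale with their standard error, which understates the change of genes with low levels, and adjusted p-values are those of limma over all 17784 genes. The study describes its replicates as independent experiments, but no source used here says which libraries share an experiment, and the p-values measure the spread between these pools. All libraries of biological low R:FR lay above all of artificial low R:FR in 6264 genes (35.2%) and below them in 3176 (17.9%). The median difference of all genes was 0.15. After median-of-ratios scaling, which removes that shift, 3395 genes (19.1%) were higher and 3960 (22.3%) lower, so the share of higher genes among those that differed was 63.7% as reported and 46.2% after scaling. A median below given for a gene group is to be read against 0.15. Set against the same 3 weed-free libraries, 1103 genes (6.2%) were higher and 599 (3.37%) lower in the W libraries, and 450 (2.53%) were higher and 221 (1.24%) lower in the FR libraries.

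The 12 largest rises in biological over artificial low R:FR, among genes that averaged 10 TPM or more over the 6 libraries and did not overlap between the treatments, included dormancy, clock-output and cold genes. *DRM2* (AT2G33830), a dormancy and auxin associated gene whose family is known to rise in starved and dormant tissue, had 1923, 1932 and 2885 TPM in W1 to W3, against 3.69, 2.92 and 145 TPM in FR1 to FR3 and 233, 259 and 1080 TPM in WF1 to WF3. Its relative *DRM1* had 166, 152 and 241 TPM in W1 to W3, against 1.39, 1.6 and 6.14 TPM in FR1 to FR3 and 23.1, 29.3 and 59.8 TPM in WF1 to WF3. Both genes were high in every biological low R:FR library and near the bottom of the scale in FR1 and FR2, with weed-free leaves between, and the differences were 7.31 ± 1.48 (adjusted p = 0.012) for *DRM2* and 5.69 ± 0.50 (adjusted p = 0.00051) for *DRM1*. *GRP7* encodes a glycine-rich RNA-binding protein that the clock drives to an evening peak, and it had 5258, 4896 and 7027 TPM in W1 to W3, against 97.6, 90.9 and 2473 TPM in FR1 to FR3 and 3491, 3495 and 6508 TPM in WF1 to WF3. The rule admits only genes without overlap, and within it FR3 lay far above FR1 and FR2, nearer to weed-free leaves. The difference was 4.33 ± 1.28 (adjusted p = 0.04), and the call was lost without any of W1, W2, W3, FR1 and FR2 (adjusted p = 0.076 to 0.13).

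The other members of the 12 largest rises were *COR27*, a cold-induced regulator of the clock, the blue light receptor gene *FKF1* and the evening clock gene *ELF4*, the cold genes *KIN1* and *COR15B*, and *MEE14*, AT2G15960, AT4G33980 and AT5G17460. Their log2 differences ran from 3.68 for *COR15B* to 4.93 for *COR27*. AT2G15960, annotated only as a stress-induced protein, had 1035, 835 and 661 TPM in W1 to W3, against 25.1, 25.5 and 188 TPM in FR1 to FR3, and its difference of 4.03 ± 0.75 (adjusted p = 0.0079) did not depend on a single library. Several of these calls did. *COR27* missed the threshold without FR1 (adjusted p = 0.074) or FR2 (0.067), AT4G33980 without FR1 (0.054), AT5G17460 without FR1 (0.058), and *MEE14* without W1 (0.051), FR1 (0.062) or FR2 (0.061). *FKF1*, *ELF4* and *COR15B* missed it without any of W1, W2, W3, FR1 and FR2, at adjusted p-values of up to 0.094, 0.16 and 0.14. Without FR3 all of the 12 rises passed, and *FKF1* differed by 6.22.

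The 12 largest falls, chosen in the same way, included defence, flavonoid and light-harvesting genes. *PR1*, the classical marker of the salicylic acid response, had 0.273, 0.221 and 1.18 TPM in W1 to W3, against 23.7, 37.1 and 119 TPM in FR1 to FR3 and 0, 0.144 and 8.22 TPM in WF1 to WF3. The 3 artificial low R:FR libraries were all above 20 TPM while WF1 was listed at 0, and the difference was -5.01 ± 1.00 (adjusted p = 0.01). The plant defensins *PDF1.3* and *PDF1.2*, markers of the jasmonate and ethylene response, differed by -4.28 ± 0.38 (adjusted p = 0.0003) and -4.15 ± 0.54 (adjusted p = 0.0016). *PDF1.3* had 0.522, 0.552 and 2.56 TPM in W1 to W3, against 47.8, 49.2 and 23.9 TPM in FR1 to FR3. These defensin genes are near-identical copies, and how reads were shared between them is uncertain, as it is for the *RBCS* and *LHCB1* genes, *COR15A* and *COR15B*, *KIN1* and *KIN2*, and the *SAUR19* to *SAUR24* group.

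*CHS*, chalcone synthase at the entry to flavonoids, had 12, 10.7 and 5.12 TPM in W1 to W3, against 223, 191 and 51.4 TPM in FR1 to FR3 and 23.3, 21.8 and 8.43 TPM in WF1 to WF3. FR3 was again the lowest of the artificial libraries, yet it was above every other library outside that treatment, and the difference was -3.75 ± 0.67 (adjusted p = 0.0063). *TRY*, a small MYB-like protein that represses trichome formation, had 0.88, 0.755 and 0.659 TPM in W1 to W3, against 24.4, 25.1 and 11.7 TPM in FR1 to FR3 and 4.27, 4.32 and 2.03 TPM in WF1 to WF3, and it differed by -3.53 ± 0.29 (adjusted p = 0.00015). *LHCB4.3*, a variant antenna protein of photosystem II, had 23.6, 34.3 and 30.3 TPM in W1 to W3, against 343, 300 and 209 TPM in FR1 to FR3 and 114, 104 and 99.5 TPM in WF1 to WF3. Its 3 groups did not overlap and weed-free leaves lay between, with a difference of -3.21 ± 0.19 (adjusted p = 1.1e-05). The remaining falls were AT3G28270, AT2G15020, *CP1*, a calcium-binding protein, the glutathione transferase gene *ERD9*, AT3G15536, annotated as other RNA, and AT4G10500, a 2-oxoglutarate-dependent oxygenase. *ERD9* missed the threshold without FR1 (adjusted p = 0.055). AT3G15536 and AT4G10500 missed it without any of W1, W2, FR1, FR2 and FR3, at up to 0.072 and 0.1.

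**Figure D1:**
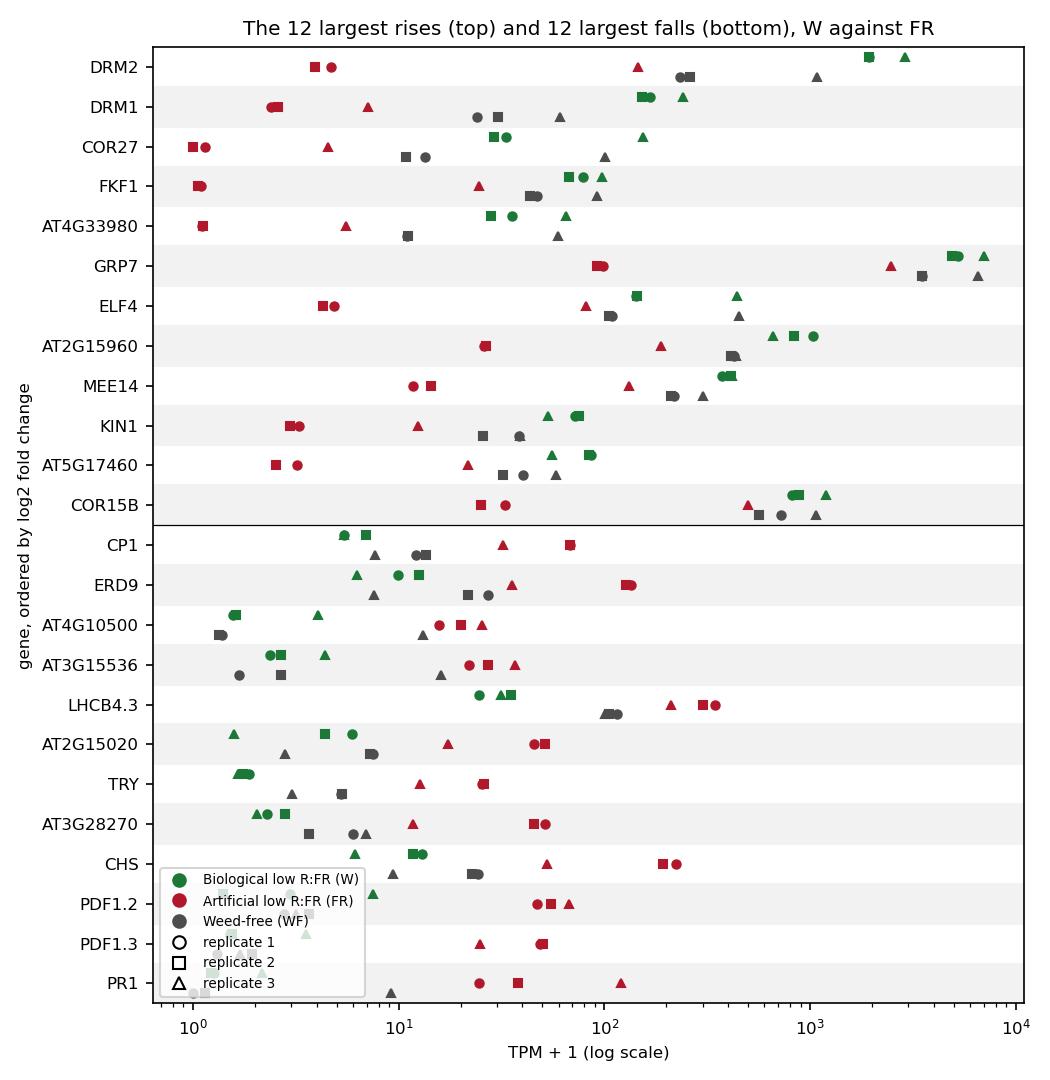
TPM + 1 on a log scale (horizontal) of the 12 genes with the largest positive and the 12 with the largest negative log2 difference between biological and artificial low R:FR (vertical), among genes that passed, averaged 10 TPM or more over the 6 libraries and did not overlap, with a point for each library. Among the rises FR3 (red triangle) lies to the right of FR1 and FR2, and DRM2 spans 2.92 TPM in FR2 to 2885 TPM in W3.

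Because many of the largest rises are evening genes, the 250 bases before the start of each gene were read from the TAIR10.1 genome of RefSeq for 17593 of the genes tested. The evening element AAAATATCT, searched on both strands, is known to be bound by the morning clock proteins *CCA1* and *LHY* and their relatives. It was found in 458 of all these promoters (2.6%), in 175 of 4218 genes that rose (4.15%) and in 47 of 2387 genes that fell (1.97%). Among genes higher by at least 2 on the log2 scale it was in 23 of 114 (20.2%), and among genes lower by at least 2 it was in 0 of 72. Of the 12 largest rises 6 held it and of the 12 largest falls 0. The 3 promoters printed here, in lower case with the element or its reverse complement in capitals, are shown because they place the element in rises named above, with more than a single copy in *GRP7* and AT2G15960, from *GRP7* at chr2:9266558-9266807 on the minus strand, AT2G15960 at chr2:6946846-6947095 on the plus strand and *FKF1* at chr1:25508389-25508638 on the plus strand, each written 5′ to 3′ and ending at the base before the start.
GRP7: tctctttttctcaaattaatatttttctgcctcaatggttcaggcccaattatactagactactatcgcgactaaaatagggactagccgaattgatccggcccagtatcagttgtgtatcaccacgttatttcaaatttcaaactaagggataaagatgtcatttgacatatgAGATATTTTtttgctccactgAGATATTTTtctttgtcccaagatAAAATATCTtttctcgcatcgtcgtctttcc
AT2G15960: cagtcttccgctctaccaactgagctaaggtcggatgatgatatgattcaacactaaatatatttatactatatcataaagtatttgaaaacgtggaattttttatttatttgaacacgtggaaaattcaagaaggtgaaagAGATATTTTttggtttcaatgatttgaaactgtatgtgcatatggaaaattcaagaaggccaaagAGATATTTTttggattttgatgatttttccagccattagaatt
FKF1: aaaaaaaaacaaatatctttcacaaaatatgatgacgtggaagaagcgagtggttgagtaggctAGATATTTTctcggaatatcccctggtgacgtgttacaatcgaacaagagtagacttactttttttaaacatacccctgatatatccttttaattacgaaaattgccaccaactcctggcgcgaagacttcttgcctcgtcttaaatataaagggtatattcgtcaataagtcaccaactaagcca

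The copies lay 76, 55 and 31 bases before the start in *GRP7*, 108 and 43 in AT2G15960 and 186 in *FKF1*. *MEE14* and AT5G17460 each held a single copy, at 66 and 23 bases. The core of the C-repeat, CCGAC, to which CBF proteins bind, was in 23 of 114 promoters of genes higher by at least 2 (20.2%), in 8 of 72 lower by at least 2 (11.1%) and in 13.4% of all. The core of the abscisic acid response element, ACGTGG, was in 22 of 114 (19.3%), in 8 of 72 (11.1%) and in 8.66% of all. ACGTGG can share its bases with the G-box CACGTG, which was in 10.5% and 11.1% of the same promoters and in 7.16% of all. These are matches of letters in a window, described without a test, and binding was not measured.

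Of 10 morning clock genes 0 were higher and 4 lower, with a median difference of -1.48, while of 15 day and evening genes 9 were higher and 0 lower, with a median of 1.94. Set against weed-free leaves, 1 morning gene was higher and 0 lower in the W libraries, and 0 passed in the FR libraries. Of the day and evening genes 0 passed against weed-free leaves in either treatment, with medians of 0.27 in W and -1.46 in FR libraries. *CCA1*, a MYB-like repressor at the core of the morning loop, had 5.24, 3.61 and 1.47 TPM in W1 to W3, against 37, 40.9 and 8.21 TPM in FR1 to FR3 and 4.12, 4.55 and 1.27 TPM in WF1 to WF3. The artificial low R:FR libraries were above every other library, FR1 and FR2 by far and FR3 by little. *TOC1*, the evening repressor of *CCA1*, had 53.4, 38.1 and 81.4 TPM in W1 to W3, against 3.74, 3.57 and 16.3 TPM in FR1 to FR3 and 22.2, 24.2 and 71.6 TPM in WF1 to WF3, with the lowest values in FR1 and FR2. *GI*, an evening protein of flowering control, had 26.5, 24.1 and 29.9 TPM in W1 to W3, against 3.58, 3.66 and 16.7 TPM in FR1 to FR3 and 20.9, 19.8 and 30.8 TPM in WF1 to WF3. The differences were -2.56 ± 0.69 (adjusted p = 0.027) for *CCA1*, 2.96 ± 0.68 (adjusted p = 0.016) for *TOC1* and 1.94 ± 0.50 (adjusted p = 0.021) for *GI*.

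*RVE8* and *LNK3*, a morning activator and its cofactor family, differed by -2.06 ± 0.55 (adjusted p = 0.024) and -2.18 ± 0.52 (adjusted p = 0.016), and the evening-complex gene *ELF3* by 2.07 ± 0.49 (adjusted p = 0.016). *ELF4*, another subunit of that complex, had 141, 143 and 439 TPM in W1 to W3, against 3.86, 3.27 and 80.2 TPM in FR1 to FR3, and it differed by 4.13 ± 1.31 (adjusted p = 0.05). *LHY*, the partner of *CCA1*, had 1.41, 0.87 and 0.648 TPM in W1 to W3, against 7.58, 8.86 and 1.13 TPM in FR1 to FR3, and its difference of -1.53 ± 0.53 (adjusted p = 0.056) missed the threshold. *PRR5*, a daytime repressor, had 67.7, 59.3 and 49.5 TPM in W1 to W3, against 0.583, 0.452 and 43.9 TPM in FR1 to FR3, so that FR3 was near the biological libraries and FR1 and FR2 near 0, and its difference of 3.66 ± 1.31 (adjusted p = 0.07) also missed it. *ZTL*, the F-box partner of *GI*, is not known to cycle in its transcript and differed by 0.12 ± 0.12 (adjusted p = 0.44). Against weed-free leaves *CCA1* differed by 0.05 (adjusted p = 0.97) in biological and by 2.61 (adjusted p = 0.093) in artificial low R:FR, and *TOC1* by 0.68 (adjusted p = 0.54) and -2.27 (adjusted p = 0.12), none of them past the threshold. Medians of the 10 morning genes, each relative to its mean over the 9 libraries, were 1.36, 1.62 and 0.095 in FR1 to FR3, and those of the 15 evening genes -1.65, -1.56 and -0.046.

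These counts moved with single libraries. Without FR3, 7 of 10 morning genes were lower and 11 of 15 evening genes higher. Without FR1, where FR2 and FR3 are left to stand for the treatment, 0 of 10 and 0 of 15 passed, and without FR2 0 of 10 and 2 of 15. Without W1 4 evening genes passed and without W3 3, and the morning count was 2 without W2 and 1 without W3. *CCA1* missed the threshold without W2, W3, FR1 or FR2 (adjusted p = 0.055 to 0.1), *TOC1* without FR1 (0.067) or FR2 (0.058), *GI* without W1, W3, FR1 or FR2 (0.062 to 0.078), *ELF3* without FR1 (0.053), FR2 (0.059) or W3 (0.0503), and *LNK3* without FR1 (0.068) or FR2 (0.055). *RVE8* and *ELF4* missed it without any of W1, W2, W3, FR1 and FR2, at up to 0.089 and 0.16. None of these differences changed sign. The libraries of replicate 3 also stood apart in the other groups: *ELF4* had 439 TPM in W3, against 141 and 143 TPM in W1 and W2, and 449 TPM in WF3, against 108 and 104 TPM in WF1 and WF2. Without replicate 3 of all groups, 8 of 10 morning genes were lower and 12 of 15 evening genes higher. In a fit with the replicate number as a block these counts were 8 of 10 and 11 of 15.

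B-box proteins, zinc-finger regulators of light responses many of which cycle, went both ways, with 6 of 18 higher and 9 lower. *BBX31* had 0.779, 0.494 and 0.155 TPM in W1 to W3, against 11.7, 11.3 and 5.04 TPM in FR1 to FR3, a difference of -2.75 ± 0.29 (adjusted p = 0.00031), and *BBX18*, a repressor of light responses, differed by -2.06 ± 0.23 (adjusted p = 0.00033). *BBX32* differed by -2.21 ± 0.30 (adjusted p = 0.00074). In the other direction *BBX17* had 26.7, 23.5 and 28.4 TPM in W1 to W3, against 9.42, 9.9 and 12.9 TPM in FR1 to FR3, and it rose by 1.22 ± 0.15 (adjusted p = 0.00041), with no library of the treatments overlapping. The calls in this family numbered 2 higher and 4 lower without FR1, 3 higher and 5 lower without FR2, and 3 higher and 7 lower without W1 or W3. *CDF1* and *CDF3*, repressors of flowering, fell by 1.00 ± 0.25 (adjusted p = 0.012) and 0.69 ± 0.17 (adjusted p = 0.0095).

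Most cold genes were higher under the grass than under the LEDs. CBF proteins are transcription factors that switch on freezing tolerance genes, and the clock gates their daytime level. Of 15 members of this regulon 12 were higher and 0 lower, with a median difference of 2.90. Set against weed-free leaves, 0 of the 15 were higher and 0 lower in the W libraries, with a median of 0.60. In the FR libraries 0 were higher and 1 lower, with a median of -2.03. *CBF1* had 16.9, 15.2 and 8.62 TPM in W1 to W3, against 0.31, 0.276 and 2.99 TPM in FR1 to FR3 and 6.22, 7.46 and 4.17 TPM in WF1 to WF3. The target *COR47*, a dehydrin, had 827, 1148 and 944 TPM in W1 to W3, against 82.2, 77.9 and 264 TPM in FR1 to FR3 and 475, 404 and 610 TPM in WF1 to WF3, and *KIN1*, a small hydrophilic stress protein, had 71, 74.1 and 52.2 TPM in W1 to W3, against 2.28, 1.96 and 11.4 TPM in FR1 to FR3 and 37.4, 24.7 and 38.1 TPM in WF1 to WF3. FR1 and FR2 were the lowest libraries for all of them, and FR3 came next without reaching any library of the other groups. Differences were 2.90 ± 0.46 (adjusted p = 0.0029) for *CBF1*, 3.00 ± 0.45 (adjusted p = 0.0024) for *COR47* and 3.74 ± 0.53 (adjusted p = 0.0023) for *KIN1*.

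*COR15A*, which protects chloroplast membranes in the cold, had 1882, 2194 and 2475 TPM in W1 to W3, against 242, 219 and 933 TPM in FR1 to FR3, and it rose by 2.56 ± 0.54 (adjusted p = 0.01). *COR413IM1*, a chloroplast membrane protein, rose by 2.56 ± 0.45 (adjusted p = 0.0045). *RD29A* rose by 3.67 ± 0.88 (adjusted p = 0.019), but not past the threshold without W1 (0.054), W3 (0.052) or FR1 (0.077). *KIN2* was the most abundant of the group, with 8251, 7186 and 8038 TPM in W1 to W3, against 297, 252 and 3362 TPM in FR1 to FR3, and its call was lost without any of W1, W2, W3, FR1 and FR2 (adjusted p up to 0.099). *CBF2* and *CBF3*, neighbours of *CBF1* on the chromosome, overlapped between treatments through FR3, with *CBF3* at 79.2, 72.3 and 46.4 TPM in W1 to W3, against 6.49, 4.83 and 46.8 TPM in FR1 to FR3 and differences of 1.83 ± 0.70 (adjusted p = 0.079) and 2.35 ± 0.77 (adjusted p = 0.052). Without FR3 all 15 members were higher, and the lowest count when a single library was left out was 8. The median level of the 15 genes, relative to their means, was 1.20, 1.27 and 1.24 in W1 to W3, against -2.22, -2.30 and -0.163 in FR1 to FR3 and 0.481, 0.209 and 0.667 in WF1 to WF3.

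**Figure D2:**
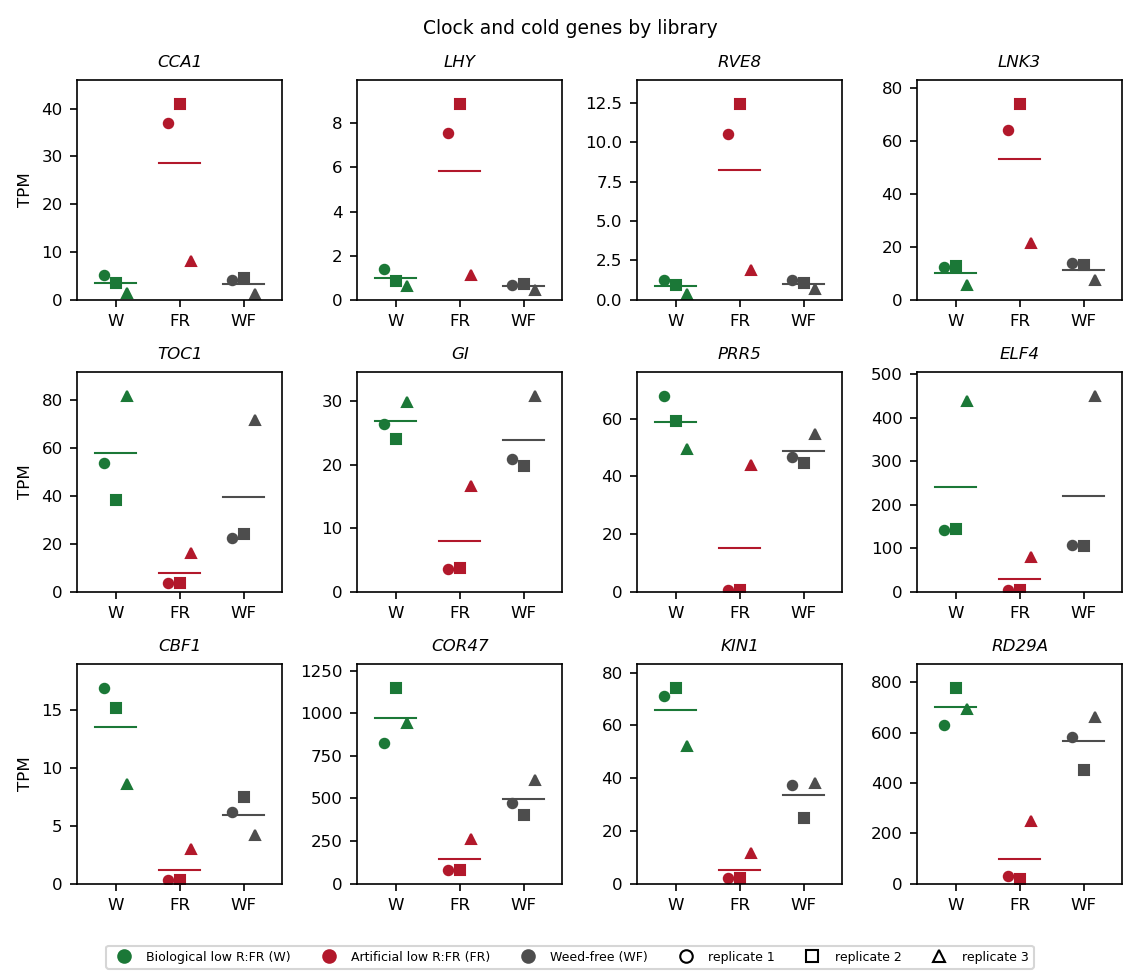
TPM (vertical, linear and from 0) of 8 clock genes and 4 cold genes by treatment, with a point for each library and a horizontal line at the mean of each group. In CCA1 and LHY the 2 highest points are FR1 and FR2, in TOC1 and the cold genes these are the lowest, and FR3 lies nearer to the other groups.

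Heat stress genes went the other way. Of 19 tested, 0 were higher and 12 lower, with a median of -0.67. *HSP90-2*, a cytosolic chaperone, had 33.2, 41.9 and 62.6 TPM in W1 to W3, against 109, 105 and 87.3 TPM in FR1 to FR3, and it fell by 1.15 ± 0.23 (adjusted p = 0.0044). *CLPB3*, the chloroplast disaggregase, fell by 1.23 ± 0.19 (adjusted p = 0.00098), and *HSP17.4*, a small heat shock protein of low level in every library, by 1.41 ± 0.22 (adjusted p = 0.00099). The heat shock factor *HSFB1* had 11.8, 11.4 and 9.28 TPM in W1 to W3, against 19.9, 23.6 and 19 TPM in FR1 to FR3, and it fell by 0.88 ± 0.17 (adjusted p = 0.0031). Only 6 of the 12 calls were made without W1, FR1 or FR2. Among 14 chaperones of the endoplasmic reticulum 1 was higher (7.14%, against 23.8% of all genes) and 1 lower (7.14%, against 13.6%). *BIP3*, an HSP70 of that compartment, was at -0.99 ± 0.24 (adjusted p = 0.0083), and after median-of-ratios scaling 6 were lower.

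Genes of photosynthetic carbon metabolism were lower under the grass. Of 28 genes of the Calvin cycle and photorespiration 0 were higher and 24 lower, with a median of -0.85, and 22 to 26 were lower when any single library was left out. *RBCS1A* had 19121, 21132 and 24974 TPM in W1 to W3, against 46419, 48943 and 39967 TPM in FR1 to FR3 and 33212, 34833 and 30110 TPM in WF1 to WF3. *RCA*, which reactivates Rubisco, had 2068, 2760 and 2013 TPM in W1 to W3, against 6623, 6256 and 4817 TPM in FR1 to FR3 and 3927, 3908 and 2820 TPM in WF1 to WF3. *GAPB*, a subunit of chloroplast glyceraldehyde-phosphate dehydrogenase, had 397, 455 and 470 TPM in W1 to W3, against 1212, 1110 and 970 TPM in FR1 to FR3 and 847, 785 and 698 TPM in WF1 to WF3, and *FBA1*, a chloroplast aldolase, had 307, 344 and 253 TPM in W1 to W3, against 1456, 1445 and 743 TPM in FR1 to FR3 and 588, 573 and 458 TPM in WF1 to WF3. In all 4 genes the biological low R:FR libraries were the lowest, the artificial ones the highest and weed-free leaves between, without overlap. The differences were -1.06 ± 0.15 (adjusted p = 0.00063), -1.37 ± 0.19 (adjusted p = 0.0006), -1.31 ± 0.13 (adjusted p = 0.0002) and -1.95 ± 0.25 (adjusted p = 0.00056). Against weed-free leaves, 12 of the 28 were lower in the W libraries and 3 higher in the FR libraries.

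Pigment genes shifted less. Of 24 genes of chlorophyll synthesis 1 was higher and 12 lower, with a median of -0.52, and the count of lower genes was 6 without W1 and 7 without FR1. *CHLI1* and *CHLH*, subunits of the magnesium chelatase that commits to chlorophyll, fell by 1.01 ± 0.18 (adjusted p = 0.0018) and 0.99 ± 0.20 (adjusted p = 0.0034). *PORA*, the protochlorophyllide reductase of etiolated seedlings, rose by 1.45 ± 0.33 (adjusted p = 0.0089). Of 27 genes of carotenoid, MEP and tocopherol synthesis 1 was higher and 17 lower, a count that was 6 without FR1, 8 without FR2 and 11 without W1. *VTE4*, the methyltransferase that makes alpha-tocopherol, had 16.3, 16.5 and 11.3 TPM in W1 to W3, against 64.8, 65.1 and 36.4 TPM in FR1 to FR3, and it fell by 1.82 ± 0.22 (adjusted p = 0.00051). *VTE1*, the tocopherol cyclase, fell by 1.30 ± 0.24 (adjusted p = 0.0026).

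The light-harvesting antenna did not move as a group, with 3 of 21 higher (14.3%, against 23.8% of all genes), 4 lower (19%, against 13.6%) and a median of 0.01. *LHCB1.4* had 20140, 17251 and 13354 TPM in W1 to W3, against 3524, 3465 and 5661 TPM in FR1 to FR3, a rise of 2.02 ± 0.26 (adjusted p = 0.00061), and *LHCB1.3*, among the most abundant transcripts of the leaf, had 68373, 56326 and 57186 TPM in W1 to W3, against 29865, 28039 and 34223 TPM in FR1 to FR3, and it rose by 0.98 ± 0.14 (adjusted p = 0.00066). *PSBS*, which triggers heat dissipation in photosystem II, had 500, 662 and 633 TPM in W1 to W3, against 1693, 1493 and 1092 TPM in FR1 to FR3, and it fell by 1.24 ± 0.19 (adjusted p = 0.00096). *LHCB1.1* and *LHCB2.1* were at -0.50 ± 0.25 (adjusted p = 0.14) and -0.46 ± 0.29 (adjusted p = 0.24). Of 27 photosystem and electron transport genes 1 was higher and 9 lower, *FD2*, the main leaf ferredoxin, by 1.1 ± 0.20 (adjusted p = 0.002). *ELIP1*, an early light-induced protein of high light stress, had 0.115, 0.371 and 0.216 TPM in W1 to W3, against 28.8, 21.9 and 3.88 TPM in FR1 to FR3 and 1.2, 1.36 and 0.332 TPM in WF1 to WF3. Its values in artificial low R:FR were the highest of the 9 libraries, with FR3 far below FR1 and FR2, and the difference was -3.60 ± 0.65 (adjusted p = 0.0058). In all, 6 of 10 photoprotection genes were lower and 1 higher. *SEP1*, a stress-enhanced protein of the thylakoid, fell by 0.96 ± 0.13 (adjusted p = 0.00055), and *VDE*, the violaxanthin de-epoxidase, rose by 1.03 ± 0.27 (adjusted p = 0.015), a call lost without W1, FR1 or FR2 (adjusted p = 0.052 to 0.06).

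Transcripts of ribosomal proteins were lower as a large block. Of 342 ribosomal protein genes of all compartments 11 were higher and 229 lower, with a median of -0.60, and 192 to 246 were lower when any single library was left out. AT3G47370, a protein of the cytosolic small subunit, had 75.8, 74.6 and 98.7 TPM in W1 to W3, against 180, 181 and 168 TPM in FR1 to FR3 and AT3G60245, of the large subunit, 136, 115 and 165 TPM in W1 to W3, against 314, 323 and 276 TPM in FR1 to FR3. Both sets of values were separate, and the genes fell by 1.09 ± 0.13 (adjusted p = 0.00035) and 1.14 ± 0.14 (adjusted p = 0.0004). The chloroplast gene *rps3* (ArthCp061), for a protein of the plastid ribosome, had 317, 303 and 353 TPM in W1 to W3, against 740, 905 and 802 TPM in FR1 to FR3, and it fell by 1.32 ± 0.12 (adjusted p = 0.00015). Against weed-free leaves 92 of the 342 were lower in the W libraries and 1 higher, and 0 were lower and 14 higher in the FR libraries.

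Of 74 translation factors 6 were higher (8.11%, against 23.8% of all genes) and 16 lower (21.6%, against 13.6%). After median-of-ratios scaling 41 were lower. *SCO1*, the chloroplast elongation factor G, had 102, 96.9 and 116 TPM in W1 to W3, against 224, 220 and 197 TPM in FR1 to FR3, and it fell by 1.02 ± 0.12 (adjusted p = 0.00032), and *EIF4E*, a cap-binding initiation factor, by 0.75 ± 0.15 (adjusted p = 0.0033). The count of lower factors was 8 without FR1 or W1 and 10 without FR2. Of 50 aminoacyl-tRNA synthetases 5 were higher (10%) and 14 lower (28%), with 3 to 6 lower without W1, W2, FR1 or FR3 and 9 without FR2. AT3G01060, annotated as a lysine-tRNA ligase, had 21.2, 25.3 and 16.5 TPM in W1 to W3, against 90.7, 81.2 and 53.2 TPM in FR1 to FR3, and it fell by 1.77 ± 0.23 (adjusted p = 0.00066). Of 34 proteasome subunits 1 was higher (2.94%) and 9 lower (26.5%). The lower count was 0 without FR1 or W1, 1 without FR2, 2 without FR3 and 5 without W2. Of 80 genes encoded in the chloroplast 1 was higher (1.25%, against 23.8% of all genes) and 17 lower (21.25%, against 13.6%). The plastid gene *ycf1* had 72, 64.5 and 72.1 TPM in W1 to W3, against 146, 149 and 139 TPM in FR1 to FR3, and it fell by 1.05 ± 0.11 (adjusted p = 0.00018).

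**Figure D3:**
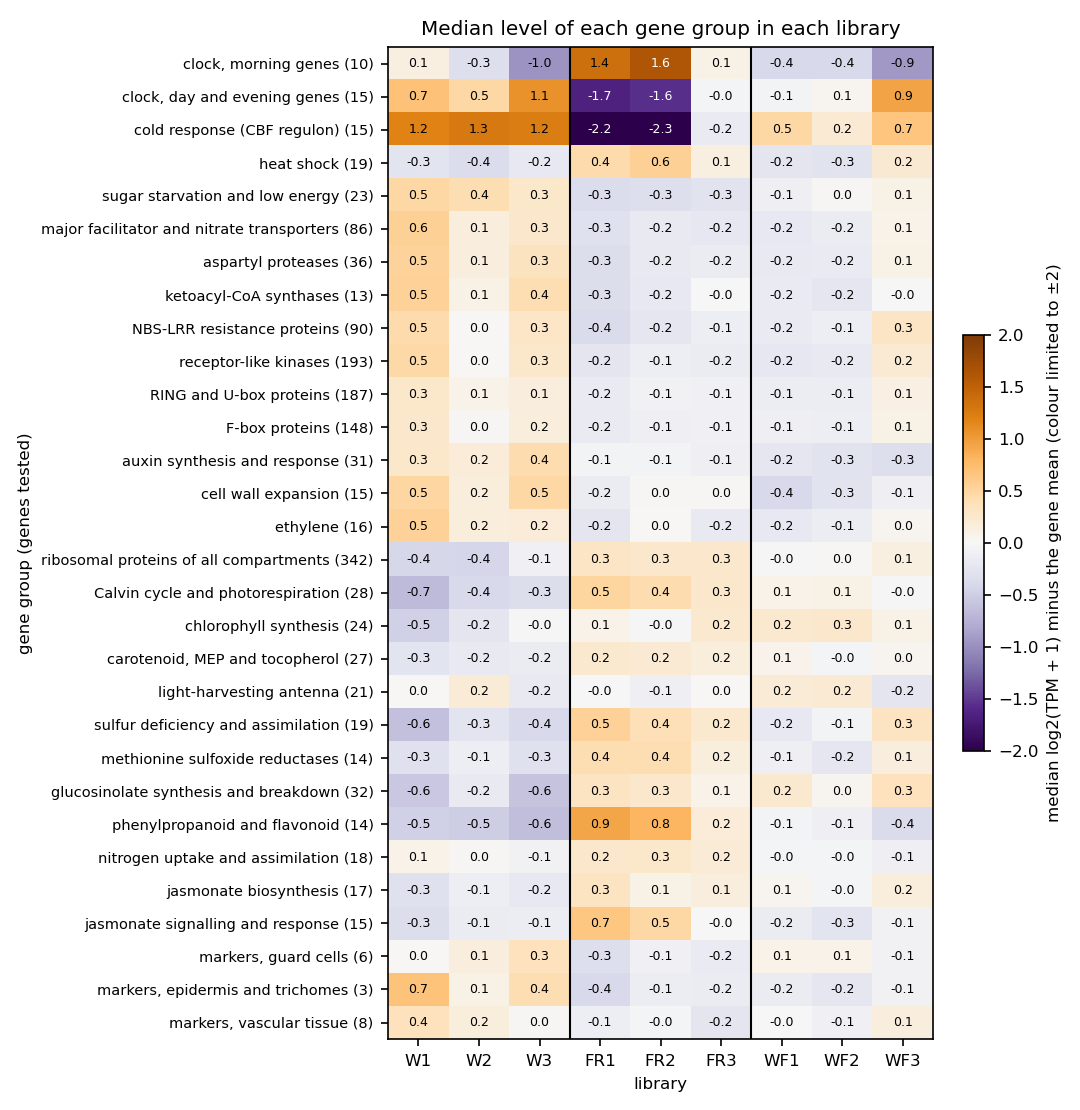
Median over the genes of a group (vertical, number of genes tested in brackets) of log2(TPM + 1) minus the gene's mean over the 9 libraries, for each library (horizontal), with colour limited to ±2. Cold genes are at 1.20 to 1.27 in W1 to W3 and -2.22 to -0.163 in FR1 to FR3, and ribosomal protein genes are above 0 in all 3 artificial low R:FR libraries and below 0 in all 3 biological ones.

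Genes that plants switch on when sugar is short were higher. Of 23 members 15 were higher and 1 lower, with a median of 0.71, and 12 to 14 were higher when any single library was left out. *BZIP1*, a transcription factor of low-energy signalling, had 31.9, 28.7 and 23.2 TPM in W1 to W3, against 6.26, 6.84 and 9.56 TPM in FR1 to FR3 and 14.4, 14.9 and 12.9 TPM in WF1 to WF3. *DIN10*, a raffinose synthase-like gene induced in the dark, had 24.1, 23.6 and 21 TPM in W1 to W3, against 1.85, 3.25 and 4.71 TPM in FR1 to FR3 and 8.12, 9.39 and 12.1 TPM in WF1 to WF3. For both, biological low R:FR was highest, artificial low R:FR lowest and weed-free leaves between, with no overlap, and the differences were 1.77 ± 0.17 (adjusted p = 0.00015) and 2.54 ± 0.23 (adjusted p = 0.00015). *DIN4*, of branched-chain amino acid breakdown, rose by 0.95 ± 0.13 (adjusted p = 0.00066), *TPS8* and *TPS11*, class II trehalose phosphate synthase genes, by 1.00 ± 0.15 (adjusted p = 0.00092) and 1.36 ± 0.22 (adjusted p = 0.0013). *SEN1*, a dark-induced senescence gene, had 35.3, 73 and 8.79 TPM in W1 to W3, against 1.66, 2.2 and 2.28 TPM in FR1 to FR3, and it rose by 3.29 ± 0.81 (adjusted p = 0.021), but it missed the threshold without W1 (0.064), FR1 (0.08), FR2 (0.065) or FR3 (0.054). *DIN9* fell, by 0.47 ± 0.16 (adjusted p = 0.039), a call lost without W1, W2, FR1 or FR2 (adjusted p = 0.057 to 0.16). *DRM1* and *DRM2* belong to the same list. Against weed-free leaves 8 of the 23 were higher in biological low R:FR, and in artificial low R:FR 3 were lower.

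Of 24 starch genes 5 were higher (20.8%, against 23.8% of all genes) and 5 lower (20.8%, against 13.6%). Among the rises were *SEX1*, the glucan water dikinase that starts starch breakdown, at 83, 74.8 and 82.5 TPM in W1 to W3, against 13.2, 13.4 and 54.7 TPM in FR1 to FR3, and the debranching enzymes *ISA3* and *LDA*, with differences of 1.85 ± 0.51 (adjusted p = 0.027), 1.91 ± 0.47 (adjusted p = 0.017) and 0.88 ± 0.17 (adjusted p = 0.003). Among the falls were *GBSS1*, granule-bound starch synthase, at 2.33, 2.71 and 0.804 TPM in W1 to W3, against 26.4, 22.8 and 5.02 TPM in FR1 to FR3, the starch synthase *SS2* and *ADG1*, a subunit of ADP-glucose pyrophosphorylase, with differences of -2.49 ± 0.59 (adjusted p = 0.015), -1.01 ± 0.13 (adjusted p = 0.00052) and -0.79 ± 0.14 (adjusted p = 0.0023). *SBE2.1*, a branching enzyme, rose by 1.89 ± 0.46 (adjusted p = 0.016). *SEX1*, *ISA3*, *SBE2.1* and *GBSS1* showed the order of the clock genes, with FR3 between FR1 and FR2 and the rest. Without FR3, 12 were higher and 6 lower. The calls of *SEX1*, *ISA3* and *SBE2.1* were lost without W1, W3, FR1 or FR2 (adjusted p = 0.051 to 0.094), that of *SEX1* also without W2 (0.054), and that of *GBSS1* without FR1 or FR2 (0.055), and in all 2 to 3 genes of each direction passed without W1, W3, FR1 or FR2.

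Of 86 genes of the major facilitator and nitrate transporter families 43 were higher and 7 lower, with a median of 0.52, and 31 to 50 were higher when any single library was left out. AT1G52190, a major facilitator family member, had 38.2, 29.3 and 34.3 TPM in W1 to W3, against 10.4, 12.4 and 14.5 TPM in FR1 to FR3, and it rose by 1.38 ± 0.16 (adjusted p = 0.00031). AT3G05160, of the same superfamily, rose by 1.34 ± 0.16 (adjusted p = 0.00039). Of 36 aspartyl proteases 20 were higher and 0 lower, 12 without FR1 or W1, and AT5G19120 had 20.4, 18.9 and 14.5 TPM in W1 to W3, against 4.78, 5.53 and 3.75 TPM in FR1 to FR3, a rise of 1.73 ± 0.17 (adjusted p = 0.00015). Of 27 amino acid transporters 13 were higher and 2 lower, 8 higher after median-of-ratios scaling, 8 without FR1 and 7 without W1. *BAT1*, a bidirectional amino acid transporter, rose by 1.58 ± 0.25 (adjusted p = 0.0012). Of 13 ketoacyl-CoA synthases, which extend fatty acids for cuticular wax, 9 were higher and 0 lower, with *KCS8* at 5.11, 3.12 and 4.98 TPM in W1 to W3, against 0.518, 0.487 and 1.62 TPM in FR1 to FR3, a rise of 1.56 ± 0.24 (adjusted p = 0.0011). This count was 4 without FR1 and 5 without FR2 or W1. Of 15 aquaporins 4 were higher (26.7%, near the 23.8% of all genes), *PIP1.5*, of the plasma membrane, by 1.21 ± 0.16 (adjusted p = 0.00056).

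Sulfur metabolism was lower. Of 19 genes 1 was higher and 12 lower, with a median of -0.99, and 12 were lower when any single library was left out. *APR2*, the reductase that controls sulfate assimilation in leaves, had 29.1, 32.5 and 23.6 TPM in W1 to W3, against 165, 163 and 90.5 TPM in FR1 to FR3 and 51.7, 53.5 and 42 TPM in WF1 to WF3, although its exons share 950 bases with a gene on the other strand. *LSU1*, a marker of sulfur deficiency, had 0.427, 0.612 and 0.758 TPM in W1 to W3, against 11.2, 11.1 and 11.2 TPM in FR1 to FR3 and 1.58, 2.18 and 6.69 TPM in WF1 to WF3. Each was lowest in biological low R:FR and highest in artificial low R:FR, and the differences were -2.21 ± 0.22 (adjusted p = 0.00023) and -2.94 ± 0.33 (adjusted p = 0.00053). *APR1*, *SIR*, the sulfite reductase, and *APS3*, an ATP sulfurylase, fell by 1.48 ± 0.22 (adjusted p = 0.00094), 1.04 ± 0.15 (adjusted p = 0.00071) and 1.21 ± 0.18 (adjusted p = 0.00096). *SULTR1.2*, a sulfate uptake carrier of low level in leaves, rose by 0.66 ± 0.19 (adjusted p = 0.018), a call lost without W1, FR1 or FR2 (adjusted p = 0.057 to 0.066). Against weed-free leaves 6 of the 19 were lower in the W libraries, and 2 were higher in the FR libraries.

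Glucosinolates are sulfur-rich defence compounds of the cabbage family. Of 32 genes of their synthesis and breakdown 2 were higher and 19 lower, with a median of -0.70, and 15 to 22 were lower when any single library was left out. *SOT16* and *SOT17*, the sulfotransferases of the last core step, fell by 1.02 ± 0.14 (adjusted p = 0.00054) and 1.54 ± 0.24 (adjusted p = 0.0013), and *SOT17* had 13.6, 26.6 and 14.9 TPM in W1 to W3, against 63.4, 53.1 and 44 TPM in FR1 to FR3. *GGP1*, which processes their glutathione conjugates, fell by 1.24 ± 0.18 (adjusted p = 0.00086). The 2 that rose were the myrosinases *TGG1* and *TGG2*, which break glucosinolates down in guard cells and myrosin cells, with *TGG1* at 354, 209 and 169 TPM in W1 to W3, against 73.3, 75.3 and 68.6 TPM in FR1 to FR3 and differences of 1.67 ± 0.22 (adjusted p = 0.00062) and 1.60 ± 0.34 (adjusted p = 0.0074). Against weed-free leaves 18 of the 32 were lower and 1 higher in the W libraries, and 0 differed in the FR libraries.

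Of 14 methionine sulfoxide reductases, which repair oxidised methionine, 1 was higher and 9 lower, 4 being lower without FR1 or FR2 and 5 without W1. *MSRB5* had 30.1, 29.2 and 21.6 TPM in W1 to W3, against 80.2, 86.6 and 56.3 TPM in FR1 to FR3, and it fell by 1.42 ± 0.20 (adjusted p = 0.00064). *MSRB7* was listed at 0 in W1 to W3, against 1.32, 2.01 and 3.68 TPM in FR1 to FR3, and at 0 in WF1 to WF3. It passed the filter only through FR1 to FR3, the group where it was high. *MSRA5* was the member that rose, by 0.58 ± 0.17 (adjusted p = 0.023), a call lost without W1, FR1 or FR3 (adjusted p = 0.051 to 0.09). *APX1*, the cytosolic ascorbate peroxidase, had 98.1, 155 and 146 TPM in W1 to W3, against 384, 354 and 311 TPM in FR1 to FR3, and it fell by 1.41 ± 0.18 (adjusted p = 0.00051). In all, 4 of 11 antioxidant genes were lower (36.4%, against 13.6% of all genes) and 1 higher (9.09%, against 23.8%).

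Phenylpropanoid and flavonoid genes were lower. Of 14 genes 1 was higher and 11 lower, with a median of -1.08, and 9 to 12 were lower when any single library was left out. *FLS1*, flavonol synthase, had 2.14, 1.51 and 1.9 TPM in W1 to W3, against 11.6, 8.65 and 7.82 TPM in FR1 to FR3 and 4.52, 4.15 and 3.06 TPM in WF1 to WF3. *CHIL*, which assists chalcone isomerase, had 3.41, 3.43 and 2.89 TPM in W1 to W3, against 24.1, 20.1 and 7.33 TPM in FR1 to FR3 and 3.71, 3.79 and 2.62 TPM in WF1 to WF3. Biological and weed-free leaves lay close together for *CHIL*, and both genes were highest in artificial low R:FR. The differences were -1.85 ± 0.18 (adjusted p = 0.00015) and -1.95 ± 0.36 (adjusted p = 0.0037). *PAL1*, the entry enzyme of the pathway, had 9.51, 12.3 and 9.68 TPM in W1 to W3, against 36.7, 38.6 and 17.7 TPM in FR1 to FR3, and it fell by 1.41 ± 0.28 (adjusted p = 0.0043), and *UGT78D2*, a flavonoid glucosyltransferase, by 1.20 ± 0.23 (adjusted p = 0.0029). Only *4CL2* rose, by 0.54 ± 0.16 (adjusted p = 0.025), and not without W2, FR2 or FR3 (adjusted p = 0.067 to 0.076).

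In nitrogen metabolism 4 of 18 genes were higher and 9 lower. *NIA2*, the main nitrate reductase, had 48.7, 50.3 and 27 TPM in W1 to W3, against 196, 191 and 155 TPM in FR1 to FR3 and 65.7, 65.8 and 54.4 TPM in WF1 to WF3. Artificial low R:FR was above all other libraries, and the difference was -2.12 ± 0.21 (adjusted p = 0.00022). *NIR1*, nitrite reductase, and *GLU1*, the ferredoxin-dependent glutamate synthase, fell by 0.92 ± 0.13 (adjusted p = 0.00062) and 0.64 ± 0.11 (adjusted p = 0.0015), and *GDH1* and *ASN1*, glutamate dehydrogenase and a dark-induced asparagine synthetase, rose by 1.17 ± 0.16 (adjusted p = 0.00056) and 1.26 ± 0.22 (adjusted p = 0.0019). Of 17 iron status genes 2 were higher (11.8%, against 23.8% of all genes) and 6 lower (35.3%, against 13.6%), and 2 to 3 were lower without FR1, FR2 or W1. *NAS1*, which makes the chelator nicotianamine, had 8.29, 9.73 and 4.38 TPM in W1 to W3, against 39, 35.1 and 21.8 TPM in FR1 to FR3, and it fell by 1.98 ± 0.27 (adjusted p = 0.00086), while the iron deficiency regulator *BHLH101* rose by 1.40 ± 0.24 (adjusted p = 0.0018).

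Of 15 genes of copper status and superoxide dismutases 2 were higher (13.3%, against 23.8% of all genes) and 6 lower (40%, against 13.6%). *FSD1*, the iron superoxide dismutase that rises when copper is short, had 50.7, 58.8 and 73.6 TPM in W1 to W3, against 416, 328 and 181 TPM in FR1 to FR3 and 264, 298 and 341 TPM in WF1 to WF3. Biological low R:FR was below every other library, FR and WF libraries overlapped, and the difference was -2.25 ± 0.27 (adjusted p = 0.00061). *COPT2*, a copper uptake carrier, had 2.05, 2.11 and 1.1 TPM in W1 to W3, against 14.2, 13.4 and 6.31 TPM in FR1 to FR3, and it fell by 2.11 ± 0.29 (adjusted p = 0.00078). *COPT1*, another such carrier, rose by 0.85 ± 0.23 (adjusted p = 0.015), a call lost without FR1 (0.06). Of 9 phosphate starvation genes 2 were higher (22.2%, near the 23.8% of all genes) and 3 lower (33.3%, against 13.6%), with 1 lower without FR1, FR3 or W3.

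**Figure D4:**
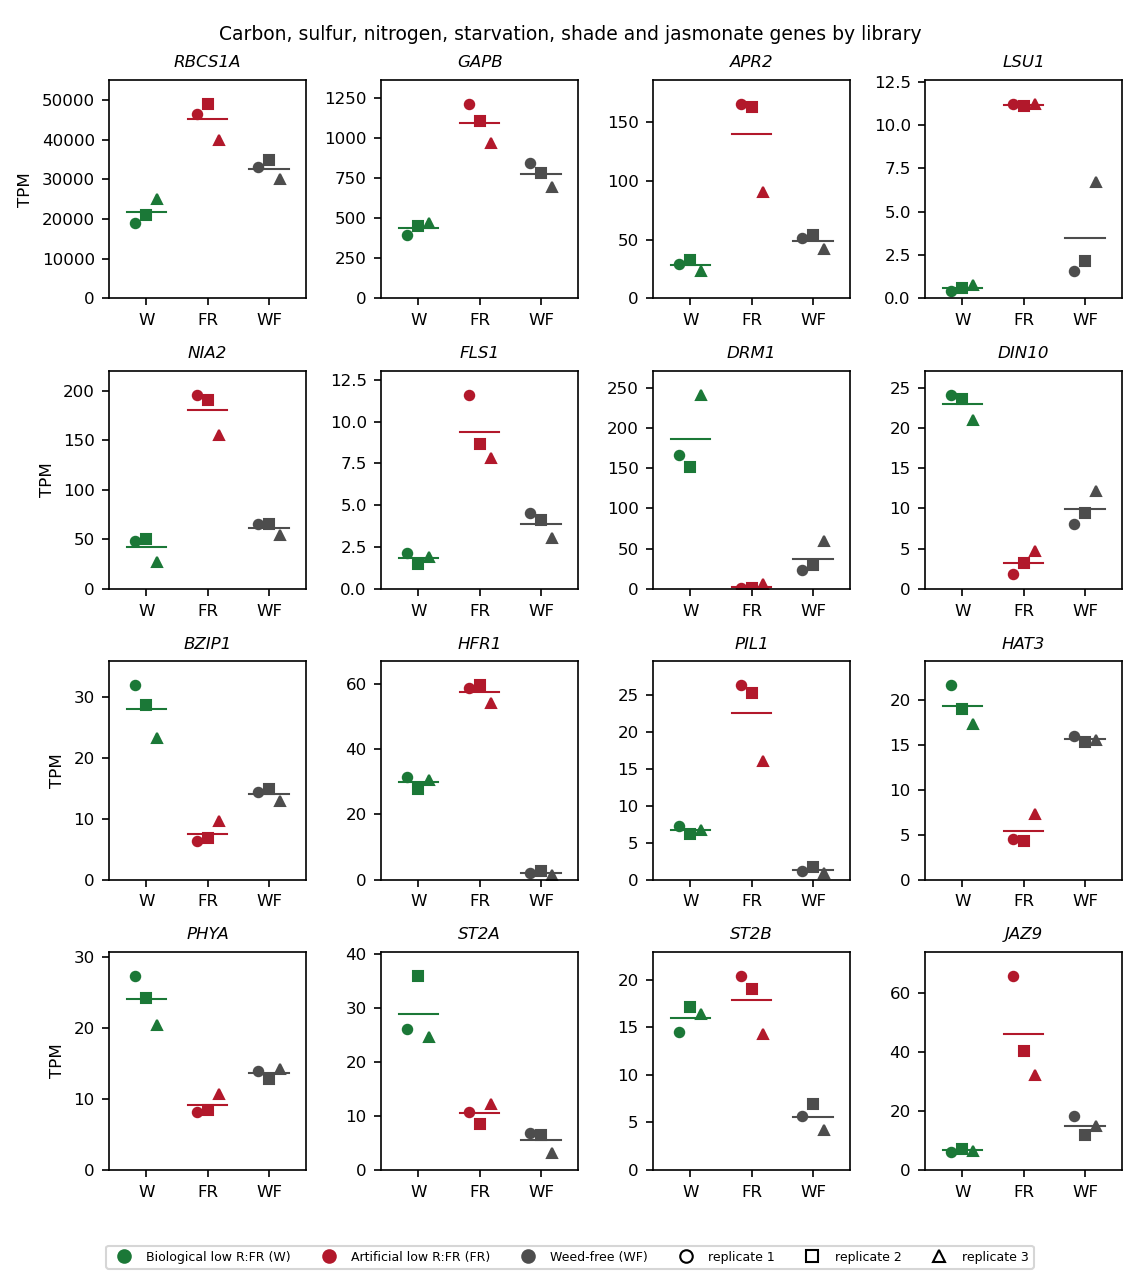
TPM (vertical, linear and from 0) of 16 genes of carbon, sulfur, nitrogen, starvation, shade and jasmonate by treatment, with a point for each library and a horizontal line at the mean of each group. RBCS1A, APR2, LSU1 and NIA2 are lowest in biological low R:FR, BZIP1, DIN10 and PHYA are highest there, and HFR1 is near 0 only in weed-free leaves.

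Shade avoidance regulators were not equal at the same R:FR. *HFR1*, an atypical bHLH protein that shade induces and that restrains PIFs, had 31.6, 27.8 and 30.5 TPM in W1 to W3, against 58.7, 59.6 and 54.1 TPM in FR1 to FR3 and 2.07, 2.7 and 1.38 TPM in WF1 to WF3. *PIL1*, another rapid shade marker, had 7.27, 6.17 and 6.67 TPM in W1 to W3, against 26.3, 25.2 and 16.1 TPM in FR1 to FR3 and 1.18, 1.68 and 0.925 TPM in WF1 to WF3. Both were above weed-free leaves in every low R:FR library, and higher in artificial than in biological low R:FR without overlap. The differences were -0.92 ± 0.15 (adjusted p = 0.0015) and -1.58 ± 0.19 (adjusted p = 0.00038). Against the shared weed-free libraries *HFR1* was higher by 3.37 (adjusted p = 1.7e-06) in biological and by 4.29 (adjusted p = 1.1e-07) in artificial low R:FR, and *PIL1* by 1.78 (adjusted p = 0.0018) and 3.36 (adjusted p = 6.1e-06). *ATHB2*, a homeodomain factor of the same response, had 77.5, 70.2 and 78.2 TPM in W1 to W3, against 103, 99.7 and 75.4 TPM in FR1 to FR3, and its difference of -0.29 ± 0.14 (adjusted p = 0.12) missed the threshold.

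Of all 23 regulators 10 were higher and 2 lower, the 2 being *HFR1* and *PIL1*, and 7 were higher and 4 lower after median-of-ratios scaling or without FR3. *PAR1*, a second inhibitor of the response, had 45.8, 39 and 53.5 TPM in W1 to W3, against 3.67, 3.8 and 11.1 TPM in FR1 to FR3 and 9.34, 9.73 and 10.5 TPM in WF1 to WF3. *HAT3*, a homeodomain factor related to *ATHB2*, had 21.6, 19 and 17.3 TPM in W1 to W3, against 4.47, 4.27 and 7.3 TPM in FR1 to FR3 and 16, 15.3 and 15.5 TPM in WF1 to WF3. For *PAR1* the FR and WF libraries overlapped, below all of biological low R:FR, and for *HAT3* artificial low R:FR was below the others. The differences were 2.85 ± 0.33 (adjusted p = 0.00061) and 1.71 ± 0.17 (adjusted p = 0.00018). *PHYA*, the far-red photoreceptor, had 27.4, 24.3 and 20.5 TPM in W1 to W3, against 8.26, 8.44 and 10.7 TPM in FR1 to FR3, and *FHL*, which carries it into the nucleus, 8.31, 5.21 and 7.28 TPM in W1 to W3, against 0.741, 0.807 and 1.6 TPM in FR1 to FR3, with rises of 1.30 ± 0.14 (adjusted p = 0.00026) and 1.96 ± 0.21 (adjusted p = 0.00022). *PIF4*, which drives elongation in shade and warmth, rose by 1.14 ± 0.13 (adjusted p = 0.00032), while *PIF5* and *PIF7* were at 0.08 ± 0.18 (adjusted p = 0.75) and -0.02 ± 0.22 (adjusted p = 0.94) and the photoreceptor gene *PHYB* at -0.33 ± 0.14 (adjusted p = 0.081).

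Auxin genes rose in part. Of 31 genes of synthesis and response 13 were higher and 4 lower, and 10 to 13 were higher when any single library was left out. *YUC8* and *YUC9*, enzymes of the last step of auxin synthesis that PIFs induce in shade, had 5.86, 3.71 and 4.41 TPM in W1 to W3, against 2.08, 1.7 and 1.39 TPM in FR1 to FR3 for *YUC8*, and 6.06, 2.98 and 6.03 TPM in W1 to W3, against 1.27, 0.916 and 1.39 TPM in FR1 to FR3 for *YUC9*. They rose by 1.04 ± 0.19 (adjusted p = 0.0024) and 1.42 ± 0.27 (adjusted p = 0.0032). *IAA29*, a fast auxin-response repressor, had 97.7, 80.5 and 93.3 TPM in W1 to W3, against 36.6, 38.7 and 45 TPM in FR1 to FR3 and 33.3, 33.8 and 17.5 TPM in WF1 to WF3, and it rose by 1.16 ± 0.22 (adjusted p = 0.0029). *GH3.5*, which conjugates auxin, had 4.69, 5.13 and 3.52 TPM in W1 to W3, against 1.42, 1.39 and 1.29 TPM in FR1 to FR3, and it rose by 1.19 ± 0.15 (adjusted p = 0.00047). *IAA19* overlapped between treatments at 0.05 ± 0.27 (adjusted p = 0.9), and *IAA17* fell, by 1.30 ± 0.26 (adjusted p = 0.005). Against weed-free leaves 15 of the 31 were higher in the W libraries, and 6 were higher and 1 lower in the FR libraries.

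SAUR-like genes are small auxin-induced growth promoters. Of 53 members 7 were higher (13.2%, against 23.8% of all genes), 16 were lower (30.2%, against 13.6%) and 30 did not pass between the treatments. Against weed-free leaves 18 were higher and 1 lower in the W libraries, and 17 were higher and 2 lower in the FR libraries. AT4G38840 had 155, 117 and 132 TPM in W1 to W3, against 218, 252 and 224 TPM in FR1 to FR3, and it fell by 0.78 ± 0.13 (adjusted p = 0.0013), while AT1G56150 rose by 1.52 ± 0.14 (adjusted p = 0.00015). The lower count was 8 without FR1, 6 without FR2, 9 without W2 (with 8 higher) and 10 without W3, and 4 genes were higher without FR1, FR2, W1 or W3. Of 15 cell wall expansion genes 7 were higher and 2 lower, 4 being higher without FR1 or W1. *XTH15*, a xyloglucan-modifying enzyme, had 3.44, 1.53 and 3.8 TPM in W1 to W3, against 0.226, 0.283 and 0.163 TPM in FR1 to FR3 and 0.268, 0 and 0.296 TPM in WF1 to WF3, and it rose by 1.63 ± 0.22 (adjusted p = 0.00062). It passed the filter only through W1 to W3, the group where it was high, so its call is a description only. *EXPA3* rose by 1.12 ± 0.15 (adjusted p = 0.00055) and *EXPA10* fell by 1.03 ± 0.16 (adjusted p = 0.001), both of them expansins. *CESA3*, a cellulose synthase of the primary wall, had 45.2, 30.7 and 35.4 TPM in W1 to W3, against 17, 20.5 and 22.9 TPM in FR1 to FR3, and it rose by 0.84 ± 0.16 (adjusted p = 0.0031).

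Of 16 ethylene genes 8 were higher and 0 lower, against 4 and 1 after median-of-ratios scaling, and 3 to 5 were higher without FR1, FR2, FR3 or W1. *EIL1*, a transcription factor of the response, had 86.1, 64.8 and 76.8 TPM in W1 to W3, against 43.8, 49.2 and 42.3 TPM in FR1 to FR3, and it rose by 0.73 ± 0.14 (adjusted p = 0.003). Of 22 gibberellin and brassinosteroid genes 8 were higher (36.4%, against 23.8% of all genes) and 2 lower (9.09%, against 13.6%), with 5 higher without FR1, FR2 or W1 and 4 lower without W3. After median-of-ratios scaling 7 were higher and 4 lower. *CPD*, an enzyme of brassinosteroid synthesis, had 61.3, 39.3 and 35.7 TPM in W1 to W3, against 15.7, 18.4 and 16.8 TPM in FR1 to FR3, a rise of 1.33 ± 0.18 (adjusted p = 0.00054). *RGL2*, a DELLA repressor, fell by 1.23 ± 0.17 (adjusted p = 0.00061). Of 12 cytokinin response genes 0 were higher and 3 lower (25%, against 13.6% of all genes), the response regulator *ARR7* at -0.68 ± 0.16 (adjusted p = 0.0074). Of 21 abscisic acid genes 10 were higher (47.6%) and 6 lower (28.6%), 3 being lower without FR1, FR2, W2 or W3. *NCED3*, the rate-limiting enzyme of its synthesis under drought, had 13.5, 9.52 and 8.59 TPM in W1 to W3, against 3.4, 3.29 and 4.38 TPM in FR1 to FR3, and it rose by 1.28 ± 0.18 (adjusted p = 0.00062), *ABI5*, a bZIP factor of the response, rose by 1.36 ± 0.17 (adjusted p = 0.0004), and the receptor genes *PYL1* and *PYL4* fell by 0.74 ± 0.16 (adjusted p = 0.0051) and 0.96 ± 0.21 (adjusted p = 0.0056).

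Jasmonate genes were lower in biological low R:FR along the pathway from synthesis to response. Of 17 synthesis genes 2 were higher and 8 lower and 7 did not pass, 4 being lower without FR1. Against weed-free leaves 1 was higher and 2 lower in the W libraries, and 1 was higher and 0 lower in the FR libraries. *LOX2*, the chloroplast lipoxygenase that feeds the pathway, had 33.1, 41.3 and 42.2 TPM in W1 to W3, against 108, 93.9 and 98.5 TPM in FR1 to FR3 and 55.5, 45.6 and 76.4 TPM in WF1 to WF3, and *AOS*, the next enzyme, 54.4, 76.7 and 61 TPM in W1 to W3, against 123, 103 and 103 TPM in FR1 to FR3. Artificial low R:FR was above all other libraries for *LOX2*, and the differences were -1.35 ± 0.18 (adjusted p = 0.00052) and -0.77 ± 0.14 (adjusted p = 0.0024). *FAD3*, a desaturase of the endoplasmic reticulum, rose by 1.74 ± 0.20 (adjusted p = 0.00036), and its plastid counterpart *FAD8* fell by 1.22 ± 0.17 (adjusted p = 0.00065). Of 15 signalling and response genes 0 were higher and 8 lower, and 7 to 8 were lower when any single library was left out. Against weed-free leaves 0 of these 15 were higher and 1 lower in the W libraries, with a median of 0.002. In the FR libraries 5 were higher and 0 lower, with a median of 0.594. *JAZ9*, a repressor that jasmonate induces, had 6.25, 7.08 and 6.59 TPM in W1 to W3, against 65.8, 40.4 and 32.2 TPM in FR1 to FR3 and 18.3, 11.9 and 14.8 TPM in WF1 to WF3. *JAZ6* had 14, 15.1 and 18.6 TPM in W1 to W3, against 56.4, 46.9 and 29.7 TPM in FR1 to FR3. The 3 groups were separate for *JAZ9*, and for *JAZ6* biological low R:FR lay with weed-free leaves. The differences were -2.56 ± 0.23 (adjusted p = 0.00015) and -1.39 ± 0.20 (adjusted p = 0.00077), and *TAT3*, a tyrosine aminotransferase induced by wounding, fell by 2.78 ± 0.44 (adjusted p = 0.0024).

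Jasmonate inactivation was measured in 5 genes, of which 2 were higher and 1 lower. *ST2A*, a sulfotransferase that inactivates a jasmonate precursor and is known to respond to shade, had 26.1, 36 and 24.6 TPM in W1 to W3, against 10.7, 8.6 and 12.3 TPM in FR1 to FR3 and 6.94, 6.41 and 3.09 TPM in WF1 to WF3. Biological low R:FR was above every library of the other groups, and artificial low R:FR above weed-free leaves without overlap. The difference was 1.37 ± 0.25 (adjusted p = 0.0027). Its neighbour *ST2B* had 14.5, 17.1 and 16.4 TPM in W1 to W3, against 20.4, 19 and 14.3 TPM in FR1 to FR3 and 5.65, 6.98 and 4.22 TPM in WF1 to WF3, and it did not pass between the treatments, at -0.14 ± 0.18 (adjusted p = 0.54). Against the shared weed-free libraries *ST2A* was at 2.25 (adjusted p = 0.0027) in biological and 0.88 (adjusted p = 0.079) in artificial low R:FR, and *ST2B* at 1.38 (adjusted p = 0.0033) and 1.52 (adjusted p = 0.0028). The paper reports the reverse order for *ST2A*, with the larger log2 rise over weed-free leaves in artificial low R:FR. Why the orders differ was not tested. *ILL6*, which cleaves jasmonate conjugates, had 2.49, 1.83 and 3.01 TPM in W1 to W3, against 0.933, 0.94 and 0.905 TPM in FR1 to FR3 and 0.833, 0.548 and 0.997 TPM in WF1 to WF3, and it rose by 0.82 ± 0.16 (adjusted p = 0.003). It reached 1 TPM only in W1 to W3, so it passed the filter through the group where it was high, and its call is a description only. *JMT*, the jasmonate methyltransferase, fell by 1.36 ± 0.25 (adjusted p = 0.0026).

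Of 24 genes of salicylic acid and immunity 9 were higher (37.5%, against 23.8% of all genes) and 6 lower (25%, against 13.6%). After median-of-ratios scaling 8 were higher and 8 lower, and without FR1 5 were higher and 5 lower. *ICS1*, the enzyme that commits to salicylic acid, and *PBS3*, which follows it, fell by 0.94 ± 0.20 (adjusted p = 0.0045) and 1.58 ± 0.24 (adjusted p = 0.0011), and *PBS3* had 1.15, 0.93 and 1.92 TPM in W1 to W3, against 5.48, 5.61 and 6.51 TPM in FR1 to FR3. *PR2* and *PR5*, which like *PR1* are salicylic acid markers, had 1.75, 1.29 and 4.31 TPM in W1 to W3, against 12.8, 17 and 38.5 TPM in FR1 to FR3 for *PR2*, and 4.64, 3.87 and 10.3 TPM in W1 to W3, against 17.4, 22.6 and 80.6 TPM in FR1 to FR3 for *PR5*. Every artificial low R:FR library was above every biological one for both, but the differences of -2.73 ± 0.93 (adjusted p = 0.059) and -2.28 ± 0.86 (adjusted p = 0.08) missed the threshold, with FR3 far above FR1 and FR2 and WF3 far above WF1 and WF2. *WRKY70*, a factor that sits between salicylic acid and jasmonate, had 138, 141 and 191 TPM in W1 to W3, against 66.3, 69.8 and 87 TPM in FR1 to FR3, and it rose by 1.06 ± 0.18 (adjusted p = 0.0014). Of 13 defensins and thionins 5 were lower and 1 higher, the thionin-like gene AT1G25275 by 0.86 ± 0.19 (adjusted p = 0.0056).

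Of 90 NBS-LRR genes, which encode the intracellular immune receptors, 54 were higher, 1 lower and 35 did not pass, with a median of 0.50, and 49 were higher and 3 lower after median-of-ratios scaling. AT5G48620 had 44.1, 28.8 and 34.4 TPM in W1 to W3, against 14.2, 15.8 and 18 TPM in FR1 to FR3, a rise of 1.1 ± 0.19 (adjusted p = 0.0015), and AT4G36150 rose by 1.09 ± 0.17 (adjusted p = 0.0011). Of 193 receptor-like kinases 73 were higher, 4 lower and 116 did not pass, with *CRK19*, a cysteine-rich kinase, at 30.2, 20.4 and 18.3 TPM in W1 to W3, against 5.53, 7.1 and 9.22 TPM in FR1 to FR3, a rise of 1.52 ± 0.20 (adjusted p = 0.00051). The NBS-LRR count was 21 without FR1 or W1, 27 without FR2 and 31 without W3, and that of the kinases 43 without FR1 and 41 without W1. These families hold groups of similar genes, among which the sharing of reads is uncertain. Against weed-free leaves 0 NBS-LRR genes were higher in the W libraries and 2 were lower in the FR libraries.

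Of 187 RING and U-box proteins, most of them ubiquitin ligases, 65 (34.8%) were higher and 10 lower, against 49 and 16 after median-of-ratios scaling, and 31 to 35 were higher without W1, FR1 or FR2. AT1G26800 had 28.5, 29.6 and 25.7 TPM in W1 to W3, against 7.65, 9.18 and 9.54 TPM in FR1 to FR3, and it rose by 1.57 ± 0.13 (adjusted p = 0.00013), and AT3G30460 had 1.66, 1.34 and 1.88 TPM in W1 to W3, against 9.65, 8.72 and 7.57 TPM in FR1 to FR3, and it fell by 1.88 ± 0.16 (adjusted p = 0.00013). Of 148 F-box proteins 39 were higher (26.4%, near the 23.8% of all genes) and 3 lower, against 29 and 6 after scaling, with 14 higher without FR1, 16 without W1 and 21 without FR2. Of 28 pectin methylesterases and their inhibitors 14 were higher and 3 lower, and 7 to 9 were higher without FR1, FR2, W1 or W3. Of 39 histone genes 5 were higher (12.8%) and 7 lower (17.9%, near the 13.6% of all genes), and 3 higher and 23 lower after scaling, while 13 were lower without W3, 4 without FR1, FR2 or W2 and 3 without W1. *HTA4*, an H2A gene, rose by 1.62 ± 0.20 (adjusted p = 0.00039). *HIS1-3*, a linker histone known to rise in drought and shade, had 43.8, 37.7 and 31.6 TPM in W1 to W3, against 1.95, 2.06 and 2.29 TPM in FR1 to FR3 and 13.2, 13.4 and 23.7 TPM in WF1 to WF3, a difference of 3.63 ± 0.20 (adjusted p = 1.1e-05) in which the libraries of each treatment lay close together.

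**Figure D5:**
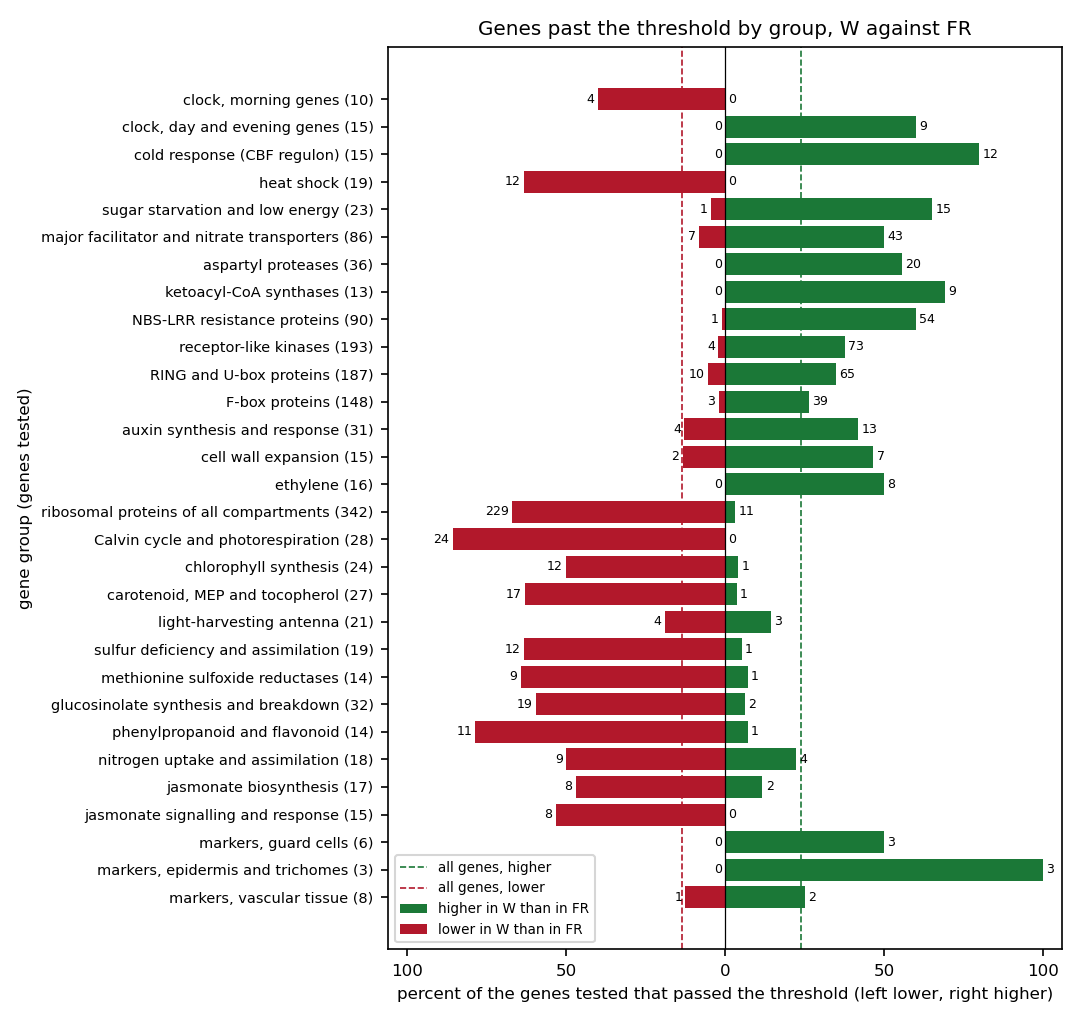
Percent of the genes tested in each group (vertical, number tested in brackets) that passed the threshold, to the left where lower and to the right where higher in W than in FR libraries, with the number beside each bar. Dashed lines mark all genes, 13.6% lower and 23.8% higher, and the Calvin cycle (24 lower of 28) and the ribosomal proteins (229 of 342) reach far beyond the left line.

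Some markers of other cell types differed between the treatments, and their part in the differences above was not tested. In pooled leaves a smaller share of a cell type and a lower level per cell cannot be told apart. All 3 epidermis markers tested of 6 were higher, with *ATML1*, the factor that specifies epidermis, at 16.6, 13.1 and 17.7 TPM in W1 to W3, against 8.08, 9.96 and 10.6 TPM in FR1 to FR3 and a rise of 0.67 ± 0.15 (adjusted p = 0.0067), and with *FDH* and *CER6*, which make wax precursors, at 0.60 ± 0.15 (adjusted p = 0.0096) and 0.56 ± 0.15 (adjusted p = 0.016). *FDH* and *CER6* are themselves ketoacyl-CoA synthases, so these markers are not separate from the count of that family above. The call of *CER6* was lost without W1 or FR1 (adjusted p = 0.058 to 0.078). The sum of the 3 markers was 104, 71.7 and 85 TPM in W1 to W3, against 49.5, 58.6 and 60 TPM in FR1 to FR3 and 59.4, 55.1 and 63.2 TPM in WF1 to WF3. Of 6 guard cell markers 3 were higher, and 1 without FR1, FR2 or W3. After median-of-ratios scaling 1 was higher and 1 lower. The sum of the 6 was 35.3, 34.1 and 45.6 TPM in W1 to W3, against 32.7, 36.4 and 31.7 TPM in FR1 to FR3 and 37.6, 34.6 and 30.1 TPM in WF1 to WF3. Of 8 vascular markers 2 were higher (25%, near the 23.8% of all genes) and 1 lower (12.5%, near the 13.6%). *SUC2*, the sucrose carrier of the phloem, rose by 0.66 ± 0.15 (adjusted p = 0.0058), *APL*, a phloem identity factor, fell by 0.56 ± 0.12 (adjusted p = 0.0054), and the sum of the 8 was 274, 356 and 269 TPM in W1 to W3, against 295, 298 and 284 TPM in FR1 to FR3 and 357, 332 and 366 TPM in WF1 to WF3. The epidermal sums were higher in all biological than in all artificial low R:FR libraries, and the guard cell and vascular sums overlapped.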

How the data were processed

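Leaf RNA was sequenced from 3 libraries of each of the 3 light treatments. The submitters' processing notes name Bowtie2 2.4.3, HTSeq 0.13.5 and DESeq2 1.30.1, and the libraries were made with an Illumina TruSeq RNA kit. The authors deposited TPM, FPKM and coverage (mean read depth over a gene) for each gene and library, and a table of counts divided by DESeq2 size factors. Files with their own fold changes and p-values were not used. The program behind the TPM values and its strand setting are not given in the sources used here, so genes that overlap on opposite strands are uncertain. Coordinates of 36637 of the 37363 genes matched TAIR10.1.

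Log2(TPM + 1) of genes with at least 1 TPM in at least 3 libraries was fitted with limma 3.58.1 (trend and robust) over all 9 libraries, with Benjamini-Hochberg adjustment over 17784 genes and a threshold of 0.05. Coverage divided by FPKM gave the relative depth of the libraries. The size-factor table gave whole reads for 100% of values at a tolerance of 1e-06, 1683076 to 5025090 reads per library, and was tested only as an alternative, with limma, edgeR 4.0.16 and DESeq2 1.42.0. The paper lists many times more mapped reads for every library, and the cause was not tested. Scripts were tested on simulated data.

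Genes were named by a rule: the 12 largest differences in each direction among genes that passed, averaged at least 10 TPM over the 6 low R:FR libraries and did not overlap between treatments, up to 4 members of each list with the lowest adjusted p, members past the threshold against a list's majority, 6 clock genes, and ST2A, ST2B and ILL6. A further 33 list members were named after their values were seen. Of 841 list members, 819 matched RefSeq by symbol and 695 of these passed the filter. The members and lists were chosen with earlier results of these data known. Promoters were the 250 bases before the annotated start.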

Additional observations from a re-analysis of the deposited data

How the results depend on the processing

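The count of 6658 genes that differed ranged from 3743 to 8044 when libraries were left out, with 4204 without W1, 3743 without FR1, 4264 without FR2 and 8044 without replicate 3 of every group. Genes higher in biological low R:FR ranged from 2163 to 4805 (2391 without W1, 2163 without FR1, 2618 without FR2) and genes lower from 1580 to 3239 (1580 without FR1). Median-of-ratios scaling gave 3395 higher and 3960 lower, and quantile scaling 3382 and 3392. On the normalized counts limma called 1784 of 7132 genes (914 higher, 870 lower), and on whole reads edgeR called 1906 of 6719 (990 higher, 916 lower) and DESeq2 1564 of 16601 (831 higher, 733 lower). Of 2448, 2294 and 5434 TPM calls whose genes those fits tested, 784, 822 and 706 were called in the same direction and 78, 80 and 69 in the opposite one, and the cause was not tested. Of the 24 largest differences 13 to 24 passed when libraries were left out. Lists with more calls in 1 direction than in the other, by any margin, numbered 76. Of these, 66 to 74 kept that direction when libraries were left out, 62 under quantile and 65 under median-of-ratios scaling. With the replicate number as a block 7505 genes differed (4742 higher, 2763 lower), with 8 of 10 morning clock genes lower, 11 of 15 evening genes higher and 10 starch genes higher. Deviations of same-numbered libraries correlated at -0.03 to 0.31. The correlation was over 0.1 in 6 of 9 such pairs, and in 1 of the 3 pairs of W and FR libraries. Differently numbered libraries correlated at -0.30 to 0.19. The pairs of replicate 3 were at 0.17 (W3 and FR3), 0.27 (W3 and WF3) and 0.31 (FR3 and WF3). The main fit did not pair the samples, and whether the numbers mark shared experiments was not tested. Of 473 named genes 450 passed the threshold, 329 of them under every TPM alternative, and 0 changed sign under any of these. Neither the lists nor the named genes were counted in the fits of the normalized counts and whole reads, so their stability is shown for TPM only. Other pseudocounts and filters kept the count within 1.5 times. With 3 libraries a group, differences near the threshold are not detectable reliably.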
